A study of Mus musculus with 10 samples.

Results

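The 10 genes of the BCL2 family studied here encode proteins that govern whether a cell opens its mitochondria and dies, and they were followed in mouse neuroblastomas. They were read from all probes of the array whose gene name was Bcl2, Bcl2l1, Bcl2l2, Mcl1, Bcl2l11, Bax, Bak1, Bid, Bad or Bmf, which gave 14 probes of 10 genes among 55681 probes of 36161 gene names. Gene expression was measured in 5 untreated tumours of ALK/MYCN mice, which were ALK+/-, MYCN+/- transgenics expressing ALK F1174L, a mutant of the receptor tyrosine kinase ALK, on a C57BL/6 x 129X1/SvJ background. They were compared with 5 untreated tumours of MYCN mice, MYCN+/- transgenics on a 129X1/SvJ background. All 10 tumours therefore carried the MYCN transgene, and no difference below can be told apart from one of strain. The labels give neither the age of the mice nor the promoters of the transgenes, and each array holds the tumour of a different mouse. Every value is a log2 ratio of the tumour RNA (Cy3) over a reference RNA from 11 murine cell lines (Cy5) hybridised to the same array. The ratios were normalised by loess within each array, so that 0 means the ratio typical of probes of similar brightness.

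Proteins of this family act on the outer mitochondrial membrane. Bcl2, Bcl2l1 (encoding BCL-XL), Bcl2l2 (BCL-W) and Mcl1 encode pro-survival members, Bax and Bak1 encode the effectors that form pores in that membrane, and Bid, Bad, Bmf and Bcl2l11 (BIM) encode BH3-only proteins, which bind pro-survival members or activate the effectors. High MYC activity is known to sensitise cells to this route of death, and BCL2 is widely expressed in human neuroblastoma.

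Of the 14 probes, 6 genes had 1 and 4 genes (Bcl2l1, Bcl2l2, Mcl1 and Bad) had 2. Of these, 4 are printed: that of Bcl2, the member with the largest positive difference, that of Bcl2l11, which holds BH3 codons, and the dimmer ones of Bcl2l1 and Bad, which are set against a second probe below. Whether they lie in coding exons was not looked up, since no annotation of their build was used here. Capitals in the Bcl2l11 probe mark the codons at the core of the BH3 motif, the element that binds pro-survival proteins; nothing is marked in the others.
Bcl2: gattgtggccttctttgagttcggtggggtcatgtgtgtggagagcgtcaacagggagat
Bcl2l1, the dimmer probe: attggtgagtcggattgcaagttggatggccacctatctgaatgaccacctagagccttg
Bcl2l11: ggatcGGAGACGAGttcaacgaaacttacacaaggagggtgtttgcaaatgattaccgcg
Bad, the dimmer probe: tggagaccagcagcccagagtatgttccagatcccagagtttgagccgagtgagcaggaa
On build mm9 the Bcl2 probe lies on the minus strand at chr1:108608970-108609029, and the array ties it to the transcript variant NM_177410. The Bcl2l1 probe lies on the minus strand at chr2:152655185-152655244. The probe of Bcl2l11 spans chr2:127972893-127983988 on the plus strand, and that of Bad chr19:7016918-7017403 on the plus strand, so both of these 60-base probes cross an intron.

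All 10 genes passed the filter on dim probes (well above background in the tumour channel on at least 5 of the 10 arrays), through 13 of their 14 probes. The probe left out was the dimmer one of Bcl2l2, which was well above background in 1 ALK/MYCN tumour and in 0 MYCN tumours and averaged 0.065 ± 0.14 in the ALK/MYCN group and 0.043 ± 0.060 in the MYCN group (SD, n = 5 each). The brightest probe of every gene was well above background on all 10 arrays in both channels. Each gene is represented below by its brightest probe unless a second one is named. Differences are ALK/MYCN minus MYCN on the log2 scale, with limma adjusted p over all 30857 probes that passed the filter.

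Among the 10 genes, 2 rose and 2 fell in ALK/MYCN tumours. The pro-survival genes Bcl2 and Bcl2l2 were higher, and the BH3-only genes Bid and Bmf were lower, by 0.35 to 0.51 on the log2 scale. Without ALK/MYCN 5, 2 of the 10 passed, both higher. The remaining 6 genes did not pass in all 10 tumours, and 6 of the 10 had an unadjusted p under 0.05, against 39.0% of all genes tested. Of the 22263 genes tested 26.0% were called, 14.0% higher and 12.0% lower, and the median difference was 0.076 over the 10 genes and -0.004 over all genes tested. Counted by probe, 5 of the 13 were called, against 24.9% of the probes tested. Among these 5 was the dimmer probe of the pro-survival gene Mcl1, which was lower (-0.68, limma adjusted p = 0.0424), while its brighter probe did not pass. The groups did not overlap for Bcl2l2 alone of the 10, against 19.9% of the genes and 18.9% of the probes tested.

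**Figure D1:**
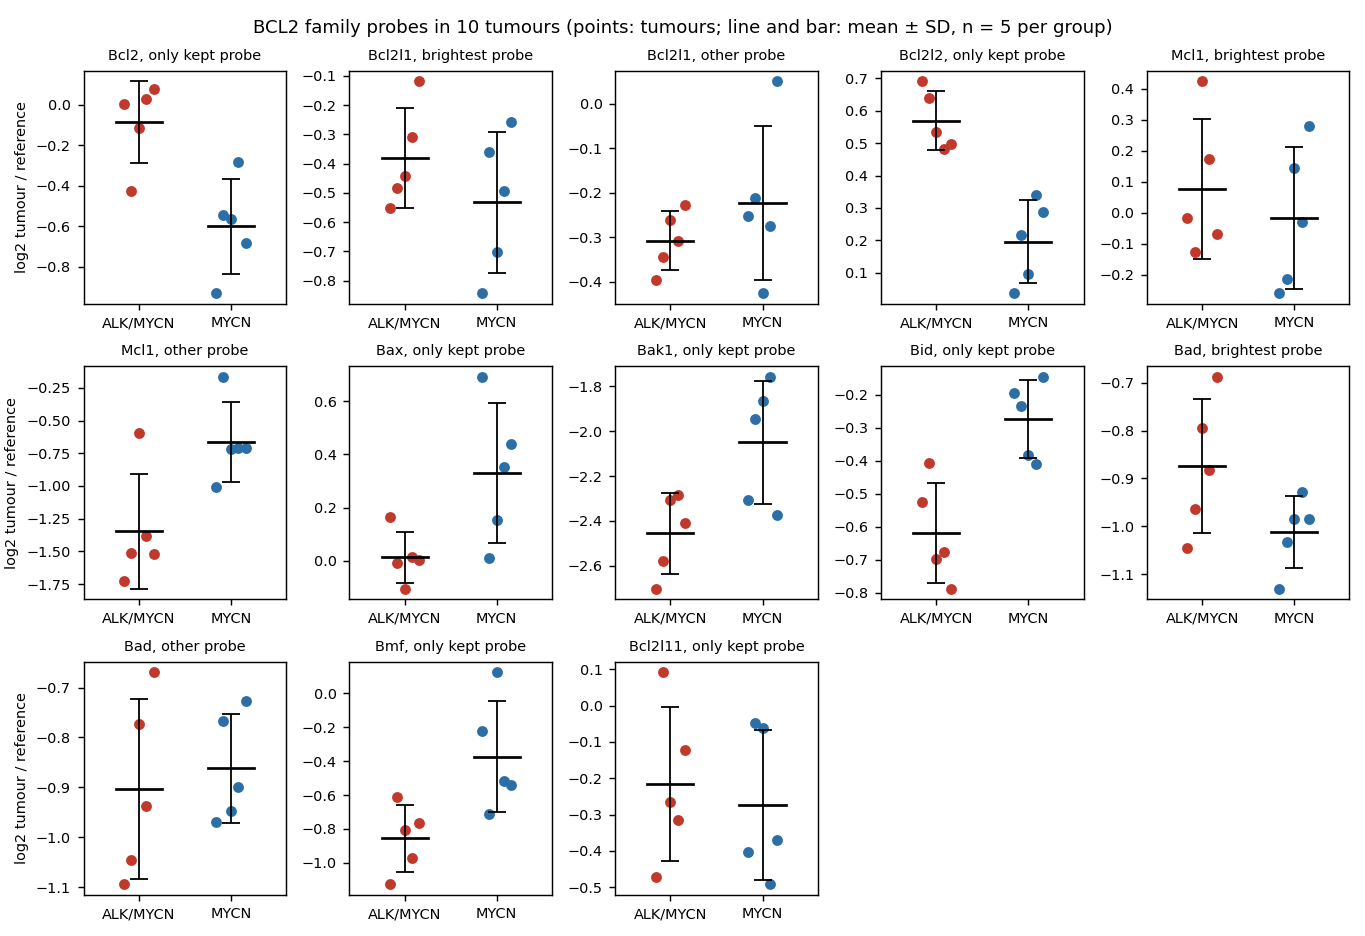
Log2 ratio of tumour over reference for each of the 13 BCL2 family probes that passed the filter, with ALK/MYCN tumours (red) left of MYCN tumours (blue), 1 point per tumour and the mean ± SD of 5 tumours as a line and bar; each panel has its own vertical scale. The groups separate fully for Bcl2l2, and 4 of 5 ALK/MYCN tumours lie above every MYCN tumour for Bcl2.

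The pro-survival genes differed among themselves. Bcl2, the founding member, gave 0.0048, -0.43, -0.12, 0.026 and 0.076 in ALK/MYCN tumours 1 to 5, against -0.93, -0.55, -0.56, -0.28 and -0.68 in MYCN tumours 1 to 5. All but 1 of the ALK/MYCN tumours lay above every MYCN tumour, and the groups overlapped only through ALK/MYCN 2, which lay below MYCN 4. The difference was 0.51 ± 0.13 (SE, limma adjusted p = 0.0184), a 1.43-fold higher level. Bcl2l2 encodes BCL-W, a close relative of BCL-XL that is known for its role in neurons and in the testis. It gave 0.69, 0.64, 0.54, 0.48 and 0.50 in ALK/MYCN tumours, against 0.037, 0.22, 0.096, 0.34 and 0.29 in MYCN tumours. Every ALK/MYCN tumour was above every MYCN tumour. The difference was 0.37 ± 0.078 (SE, limma adjusted p = 0.00781), a 1.30-fold higher level. Within slides 1, 2 and 3 of the arrays, Bcl2 differed by 0.50, 0.25 and 0.67 and Bcl2l2 by 0.60, 0.23 and 0.30. Every slide held only 1 tumour of at least 1 group, so differences within slides are given here and below as a description.

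Bcl2l1, whose main product BCL-XL guards many differentiated cells, gave -0.55, -0.48, -0.44, -0.31 and -0.12 in ALK/MYCN tumours and -0.84, -0.36, -0.70, -0.49 and -0.26 in MYCN tumours. The groups were interleaved, and the difference of 0.15 ± 0.13 did not pass (SE, limma adjusted p = 0.412, 95% interval -0.13 to 0.43). Its dimmer probe, in the sequence shown above, differed by -0.085 ± 0.087 (SE, limma adjusted p = 0.513).

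Mcl1 encodes a short-lived pro-survival protein, and its 2 probes did not give the same answer. The brighter one (chr3:95466855-95466914, plus strand, mm9) gave -0.018, -0.13, 0.43, 0.17 and -0.068 in ALK/MYCN tumours and -0.26, -0.21, 0.15, -0.031 and 0.28 in MYCN tumours. These values overlapped throughout, with a difference of 0.093 ± 0.14 (SE, limma adjusted p = 0.655, 95% interval -0.21 to 0.39). The dimmer one (chr3:95465543-95465602) gave -1.73, -1.51, -0.59, -1.38 and -1.52 in ALK/MYCN tumours and -1.01, -0.17, -0.72, -0.71 and -0.71 in MYCN tumours. Here 4 of 5 ALK/MYCN tumours lay below every MYCN tumour and ALK/MYCN 3 lay among them. The difference was -0.68 ± 0.22 (SE, limma adjusted p = 0.0424), but it no longer passed when ALK/MYCN 1, 2, 4 or 5 or MYCN 2, 3, 4 or 5 was left out (limma adjusted p of 0.0666 to 0.0935), nor when slide was fitted (limma adjusted p = 0.09). The 2 probes thus gave differences of opposite sign.

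For 3 of the genes, 2 probes could be compared with each other. The dimmer minus the brighter probe, taken within each array, averaged -1.42 ± 0.26 for Mcl1 in the ALK/MYCN group and -0.65 ± 0.41 in the MYCN group (SD, n = 5 each), a difference of -0.776 with no overlap (exact permutation p = 0.00794, adjusted over the 3 genes 0.0119). For Bad this quantity was -0.029 ± 0.047 in the ALK/MYCN group and 0.15 ± 0.12 in the MYCN group, again with no overlap (exact permutation p = 0.00794, adjusted 0.0119). For Bcl2l1 it was 0.073 ± 0.12 in the ALK/MYCN group and 0.31 ± 0.17 in the MYCN group, with overlap (exact permutation p = 0.0238, adjusted 0.0238). The tests were two-sided over all 252 assignments of the tumours, whose smallest p is 0.00794. Among 4053 genes with 2 probes that passed the filter, 13.6% had no overlap in this quantity and 28.3% had an unadjusted exact p under 0.05. For the genes with 1 usable probe no such check exists. Whether alleles of the mouse backgrounds lie under any probe was not tested.

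The effectors were lower on average without passing. Bax gave 0.16, -0.0085, -0.11, 0.015 and 0.004 in ALK/MYCN tumours, against 0.69, 0.010, 0.15, 0.35 and 0.44 in MYCN tumours. The ALK/MYCN tumours lay close together, and MYCN 2 and MYCN 3 lay within their range. The difference was -0.32 ± 0.12 (SE, limma adjusted p = 0.0807), with a 95% interval of -0.58 to -0.049. Bak1 was far below the cell-line reference in all 10 tumours, at -2.70, -2.58, -2.30, -2.28 and -2.41 in ALK/MYCN tumours and -2.30, -1.94, -1.87, -1.76 and -2.37 in MYCN tumours. MYCN 1 and MYCN 5 lay among the ALK/MYCN tumours, and the difference of -0.41 ± 0.14 narrowly missed (SE, limma adjusted p = 0.0546, 95% interval -0.71 to -0.10). Bak1 passed without MYCN 1 (adjusted p = 0.0413) or MYCN 5 (adjusted p = 0.028), and Bax without MYCN 2 (adjusted p = 0.0307). From Cy3 alone both passed (limma adjusted p = 0.0291 for Bak1 and 0.0485 for Bax), and Bak1 also with array weights (limma adjusted p = 0.0306). With spike-in centring Bax was at -0.042 and Bak1 at -0.14, and neither passed (limma adjusted p = 0.835 and 0.34). Median centring put Bax at -0.17 and Bak1 at -0.26, again without passing (limma adjusted p = 0.408 and 0.153).

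**Figure D2:**
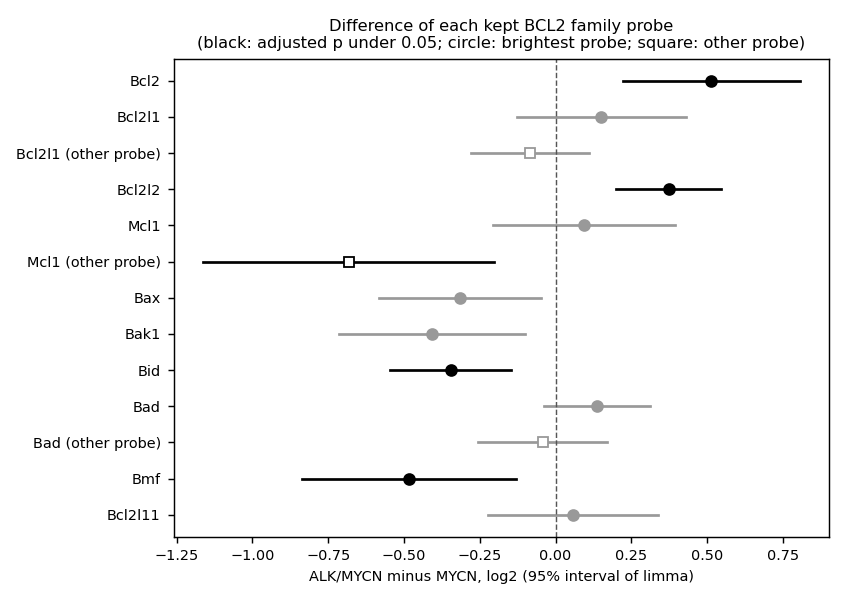
Difference of each of the 13 probes, ALK/MYCN minus MYCN on the log2 scale, with its 95% interval from limma; black marks an adjusted p under 0.05, circles the brightest and squares the other probe of a gene. Bcl2 (0.51) and Bcl2l2 (0.37) lie to the right of 0 and Bid (-0.35) and Bmf (-0.48) to the left, as does the other Mcl1 probe (-0.68), while both effectors lie to the left without passing.

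The distance between a pro-survival gene and an effector within an array is untouched by how the arrays are centred, and the 8 pairs of a pro-survival gene with an effector were set out after the values were seen. Since Bcl2 and Bcl2l2 had been called higher and both effectors averaged lower, wide distances in their 4 pairs follow from those values and are no further evidence. Bcl2 minus Bax was -0.10 ± 0.20 in the ALK/MYCN group and -0.93 ± 0.44 in the MYCN group (SD, n = 5 each), with ranges of -0.42 to 0.072 and -1.62 to -0.56 that did not overlap. Bcl2 minus Bak1 was 2.37 ± 0.23 in the ALK/MYCN group and 1.45 ± 0.15 in the MYCN group. Bcl2l2 minus Bax was 0.56 ± 0.083 in ALK/MYCN tumours, against -0.13 ± 0.32 in MYCN tumours. With Bcl2l2 minus Bak1 (3.03 ± 0.27 in ALK/MYCN tumours, against 2.24 ± 0.27 in MYCN tumours), these 4 pairs differed by 0.689 to 0.921 between the groups, with no overlap. The groups overlapped in the other 4: Bcl2l1 minus Bax was -0.39 ± 0.22 in the ALK/MYCN group and -0.86 ± 0.43 in the MYCN group, and the brighter Mcl1 probe minus Bax was 0.064 ± 0.29 in the ALK/MYCN group and -0.35 ± 0.37 in the MYCN group. No share over other pairs of genes was computed. The dimmer Mcl1 probe, which differed by -0.68 against -0.32 for Bax and -0.41 for Bak1, was not paired with the effectors. Since the distances are of log2 ratios to a reference, they compare the tumours with each other and not the amount of the 2 messages.

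Of the BH3-only genes, 2 fell. Bid encodes the protein that links death receptors to mitochondria once caspase 8 has cut it. It gave -0.53, -0.41, -0.70, -0.68 and -0.79 in ALK/MYCN tumours, against -0.19, -0.23, -0.38, -0.41 and -0.15 in MYCN tumours. The groups touched, ALK/MYCN 2 lying just above MYCN 4 and all other ALK/MYCN tumours below every MYCN tumour. The difference was -0.35 ± 0.090 (SE, limma adjusted p = 0.0195), and -0.21, -0.22 and -0.53 within slides 1, 2 and 3. Without ALK/MYCN 5 it was -0.30 and missed by little (adjusted p = 0.0501).

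Bmf, whose product is held at the cytoskeleton and released under stress, gave -1.13, -0.61, -0.81, -0.97 and -0.76 in ALK/MYCN tumours and -0.22, -0.71, 0.13, -0.52 and -0.54 in MYCN tumours. All but ALK/MYCN 2 lay below every MYCN tumour. The difference of -0.48 ± 0.16 only just passed (SE, limma adjusted p = 0.0484). It passed when ALK/MYCN 2 or MYCN 2 was left out, not when any other single tumour was (limma adjusted p of 0.0556 to 0.104). Nor did it pass when slide (limma adjusted p = 0.133) or the replicate number (limma adjusted p = 0.0924) was fitted. Within slides 1, 2 and 3, each with a single tumour of at least 1 group, it was -0.40, -0.45 and -0.39.

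Bad and Bcl2l11 did not pass. Bcl2l11 encodes BIM, which binds all the pro-survival members named here and is a target of FOXO factors and of ERK-driven turnover. It gave -0.47, 0.092, -0.26, -0.31 and -0.12 in ALK/MYCN tumours and -0.40, -0.047, -0.061, -0.49 and -0.37 in MYCN tumours. The groups lay over each other, with a difference of 0.059 ± 0.13 (SE, limma adjusted p = 0.77) and a 95% interval of -0.22 to 0.34. Bad, whose product is held inactive by phosphorylation, differed by 0.14 ± 0.079 at its brighter probe (limma adjusted p = 0.229), with values of -1.05 to -0.69 in the ALK/MYCN group and -1.13 to -0.93 in the MYCN group. At its dimmer probe it differed by -0.042 ± 0.096 (limma adjusted p = 0.786).

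The calls of Bid and Bmf depended on how the arrays were centred, while those of Bcl2 and Bcl2l2 did not. Centring on spike-in spots moved the median of all probes to 0.219 and median centring to 0.095. With spike-in centring Bcl2 and Bcl2l2 were higher by 0.78 and 0.64, Bcl2l1 and Bad also passed as higher (0.36 and 0.35, limma adjusted p = 0.046 and 0.00876), while Bid was at -0.074 (limma adjusted p = 0.625) and Bmf at -0.21 (limma adjusted p = 0.267), neither of which passed. Relative to the shifted median these were 0.565 for Bcl2, 0.418 for Bcl2l2, -0.293 for Bid and -0.43 for Bmf. On that scale Bcl2l1 was at 0.142 and Bad at 0.128, against 0.15 and 0.14 in the loess values, where neither passed. With median centring Bid and Bmf were at -0.20 and -0.34 (limma adjusted p = 0.178 and 0.125). In the scanner-processed signals they were at -0.35 and -0.51 (limma adjusted p = 0.0579 and 0.0904).

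**Figure D3:**
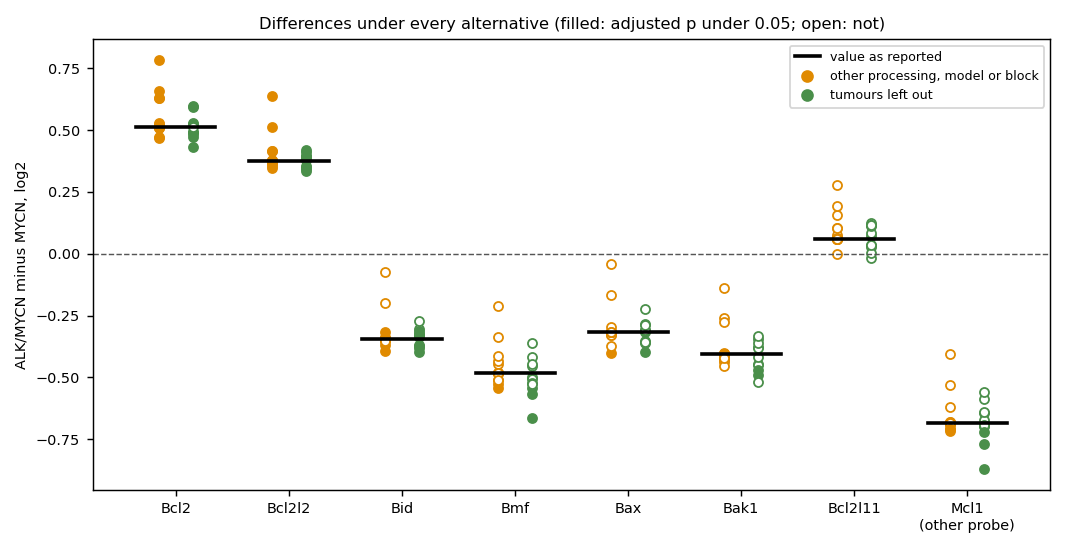
Difference of 7 genes and of the other Mcl1 probe (ALK/MYCN minus MYCN, log2) as reported (black line), under other processing, models or blocks (orange) and with tumours left out (green); filled points have an adjusted p under 0.05. Bcl2 and Bcl2l2 stay above 0 throughout, whereas Bid comes as close to 0 as -0.074 and Bmf as -0.21.

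The remaining genes of the mitochondrial pathway were taken as 8 lists of 54 genes, of which 49 were measured, 5 rose and 9 fell. Their median difference was -0.064, and 5 and 9 of 49 stand beside 14.0% higher and 12.0% lower over all genes. Without ALK/MYCN 5, 2 rose and 6 fell. The split depended on centring: 9 rose and 6 fell with median centring, and 17 rose and 4 fell with spike-in centring, so the directions below hold for the loess values.

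Among the relatives of the family, Bcl2l13, a divergent member of the outer mitochondrial membrane, rose by 0.36 ± 0.10 (SE, limma adjusted p = 0.0293) with no overlap of the groups. Bcl2l12 fell by 0.42 ± 0.13 (limma adjusted p = 0.0341). The BH3-only gene Bik averaged -0.37 in ALK/MYCN and 0.24 in MYCN tumours and fell by 0.61 ± 0.093 (limma adjusted p = 0.00176) without overlap. It was well above background in 1 of 5 ALK/MYCN and all 5 MYCN tumours, so it passed the filter through the group where it is higher. Both its call and the size of the fall are therefore uncertain. Pmaip1 (NOXA), which binds MCL1, fell by 0.50 ± 0.15 (limma adjusted p = 0.0376) and was well above background in 3 of 5 ALK/MYCN tumours. The p53 target Bbc3 (PUMA) differed by 0.14 ± 0.17 (limma adjusted p = 0.589). Hrk, a BH3-only gene of neurons, was high against the reference in both groups, at 3.62 in ALK/MYCN and 3.69 in MYCN tumours, and differed by -0.064 ± 0.064 (limma adjusted p = 0.496).

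Bcl2a1d, a pro-survival gene of haematopoietic cells, averaged 0.72 in ALK/MYCN and 1.87 in MYCN tumours and fell by 1.15 ± 0.28 (limma adjusted p = 0.015) without overlap. Its near-identical copies can share the probe. Macrophage markers moved with it: 5 of 7 measured ones fell and none rose, and their list mean, centred per gene, ran from -0.748 to -0.203 in the ALK/MYCN group and from -0.251 to 1.041 in the MYCN group. Of the macrophage markers, Cd163 did not pass the filter. Their part in the fall of Bcl2a1d was not tested.

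Downstream of the mitochondria, Apaf1, the scaffold of the apoptosome, fell by 0.44 ± 0.15 (SE, limma adjusted p = 0.0492), and Casp9, the caspase it activates, differed by 0.17 ± 0.20 (limma adjusted p = 0.568). The nuclease gene Dffb fell by 0.43 ± 0.078 and its inhibitor gene Dffa rose by 0.40 ± 0.12 (limma adjusted p = 0.00395 and 0.0303). Endog, a nuclease released from mitochondria, fell by 0.59 ± 0.14 (limma adjusted p = 0.0138). The outer membrane channel genes Vdac3 and Vdac1 rose by 0.43 ± 0.091 and 0.32 ± 0.083 (limma adjusted p = 0.00801 and 0.0208), whereas Vdac2, whose product holds BAK, differed by 0.097 ± 0.059 (limma adjusted p = 0.258).

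Of the caspases, Casp8, which cuts BID, averaged -2.85 in 5 ALK/MYCN tumours and -1.88 in the 4 MYCN tumours with a usable spot, and did not pass (limma adjusted p = 0.0631). On the death receptor route that ends in cleavage of BID, 2 of 8 genes fell and none rose, against 12.0% lower over all genes tested. Tnfrsf10b differed by -1.17 ± 0.14 (SE, limma adjusted p = 0.000657) with no overlap, and the adaptor kinase gene Ripk1 fell by 0.78 ± 0.19 (limma adjusted p = 0.0139). Of the 5 inhibitors of apoptosis, 0 passed in limma, and 4 had an unadjusted p under 0.05, against 39.0% of all genes tested: Xiap (0.24 ± 0.098) and Birc6 (0.18 ± 0.073) with positive differences, Birc3 (-0.47 ± 0.17) and Birc5 (-0.25 ± 0.099) with negative ones. Birc3 was well above background in 1 of 5 ALK/MYCN and all 5 MYCN tumours, so it passed the filter through the group where it is higher. Ywhae, encoding a 14-3-3 protein of the kind that holds phosphorylated BAD, rose by 0.44 ± 0.075 (limma adjusted p = 0.00302) with no overlap, and was the only one of 8 regulators of member turnover or activity to pass.

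**Figure D4:**
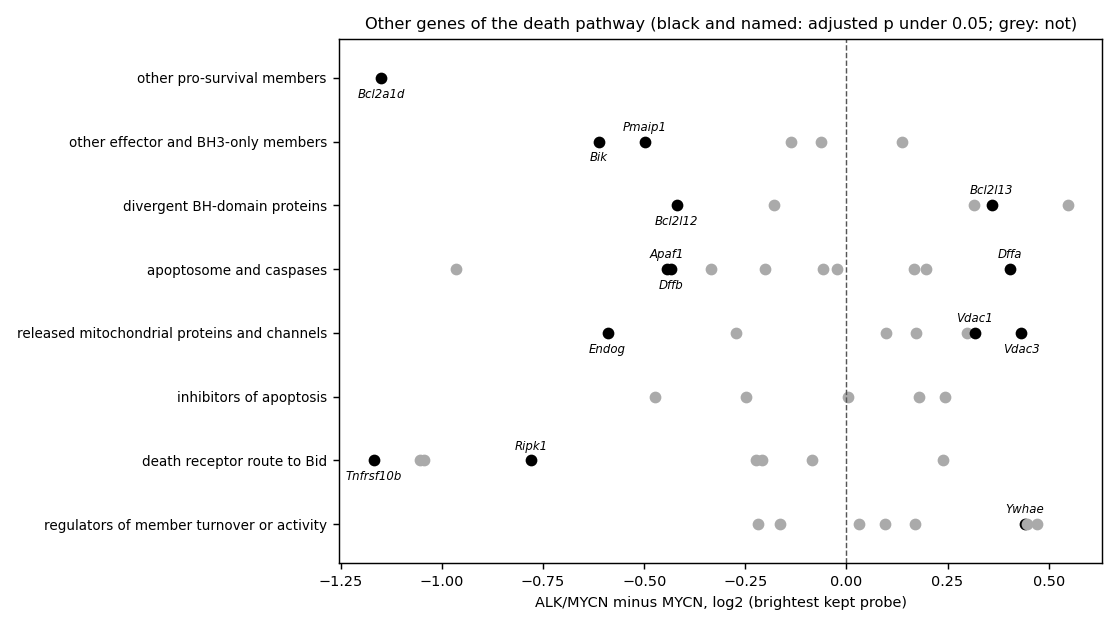
Difference of each of the 49 other pathway genes measured (ALK/MYCN minus MYCN, log2, brightest probe), 1 row per list; black named points passed at an adjusted p of 0.05 and grey points did not. Of the named genes, 5 lie to the right of 0 and 9 to the left, with Tnfrsf10b and Bcl2a1d farthest to the left.

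The tumours carried the markers of their label: all 10 noradrenergic neuroblast markers, such as Dbh, passed the filter, of which 3 rose and none fell, with list means of -0.043 to 0.09 in the ALK/MYCN group and -0.214 to 0.065 in the MYCN group. Markers of other cell types differed between the groups. Endothelial markers fell in 5 of 7 and none rose, with list means of -0.798 to 0.149 in the ALK/MYCN group and 0.029 to 0.992 in the MYCN group. Of 3 measured skeletal muscle markers 1 fell and none rose, with list means of -1.451 to -0.991 in the ALK/MYCN group and -0.703 to 4.779 in the MYCN group. Their list mean was highest in MYCN 1 (2.581) and MYCN 2 (4.779), against at most -0.234 in the other tumours. The 1 measured adrenal cortex marker, Star, was highest in ALK/MYCN 3 (6.587 after centring on its mean over the 10 tumours, a log2 ratio of 7.393). Both measured erythroid markers and 1 of 2 B cell markers fell. In limma 0 of 3 T cell, 0 of 3 neutrophil, 0 of 6 fibroblast and 0 of 3 adipocyte markers passed, with 1, 1, 1 and 0 at an unadjusted p under 0.05. Their median differences were -0.043, -1.415, -1.511 and -1.864, against -0.759 for the endothelial markers. Every fibroblast (-1.985 to -1.009) and adipocyte marker (-3.131 to -1.437) had a negative difference, so the groups cannot be called alike in these lists. The part of these cells in the differences of Bcl2, Bcl2l2, Bid and Bmf was not tested, and in bulk tumours fewer cells of a type and less RNA per cell cannot be told apart. ALK/MYCN 3, MYCN 2 and MYCN 5 had been singled out in an earlier look at these data. MYCN 5 did not stand out in the lists here, and MYCN 1 stayed in, as did MYCN 4, which had the highest list means of adipocyte (4.125) and fibroblast (2.865) markers. Without the 3 tumours together, Bcl2l2 at 0.42 and Bmf at -0.66 passed (limma adjusted p = 0.0385 and 0.0476), whereas Bcl2 at 0.51 and Bid at -0.27 did not (limma adjusted p = 0.099 and 0.152).

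Within the groups, deviations from the group means over the 10 arrays were compared, and only genes with a standard symbol were listed. Among these, the deviations of Bcl2l2 were most like those of Tm9sf4, Ndufv3 and Slc22a23 (Pearson's r = 0.951, 0.922 and 0.912). Those of Bcl2 were most like those of Creld1, Cpd and Capza2 (0.951, 0.938 and 0.931). Of the 22181 genes searched, those without a standard symbol may lie higher. All values come from the same 10 libraries and are given as a description. Each r is among the largest of a search over so many genes with only 10 arrays. How high such a maximum runs by chance was not computed, so these values do not show that the genes vary together.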

How the data were processed

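Per the file headers, the spot intensities of the 10 Agilent arrays came from Feature Extraction 10.7.3.1. The authors' deposited files also give log10 ratios, which were not tested. The values in the authors' deposited table equal log2 of the processed Cy3 over Cy5 signal within 5.01e-04, and its medians lay between -0.186 and -0.035. Mean signals were corrected by normexp (offset 50) on the median background and normalised by loess within arrays with control spots given weight 0, and signs were set so that tumour stands over reference. Outlier spots (177 to 345 per array) were set to missing, no probe spot was saturated, and spots of a probe were averaged. The 30857 probes (22263 gene names) that were well above background on 5 or more arrays in Cy3 entered 1 fit with limma 3.58.1 in R 4.3.3 (lmFit, eBayes), adjusted by Benjamini-Hochberg at 0.05.

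The number of arrays limits the precision. Between 53.8% and 58.7% of probe spots were well above background. In data simulated on 30731 probes, 66, 59 and 75 probes were changed by 0.5, 1 and 2 on the log2 scale. Of these, 42.4%, 72.9% and 97.3% were found, with 8 false calls among 152. Far more probes, 7684, were called in the measured data, which moves the threshold of the adjusted p. The simulated shares therefore do not give the power of this comparison. Slides 1, 2 and 3 held 1, 3 and 1 ALK/MYCN and 1, 1 and 3 MYCN tumours. Tumours of a number do not come from 1 animal, and the correlation of their deviations from the group means was below 0 in 4 of 5 pairs.

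The genes and lists were chosen with earlier results of these data known. Named are all 10 members with every probe and the called genes of each pathway list (up to 4 with the smallest p). Also named, among genes with a standard symbol, are the 3 most like each of the 2 members with the smallest p. Uncalled pathway genes named beside them were chosen after their values were seen. The alternatives changed the background correction, the normalisation or centring, the filter, the choice among probes, the variance model or the block, or left tumours out. The markers of 1 further cell type are not reported here.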

Additional observations from a re-analysis of the deposited data

How the results depend on the processing

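Bcl2 and Bcl2l2 were higher under all 27 alternatives; Bcl2l2 passed under each, and Bcl2 under all but the removal of ALK/MYCN 3, MYCN 2 and MYCN 5 together. Of the 10 genes, 4 passed, 2 in the scanner-processed signals, the deposited table, with median centring and without those 3 tumours, and 2 to 5 on removal of single tumours. Kept probes called numbered 7684, 12119 with spike-in centring (11090 higher, or 91.5%, against 54.9%), 4831 without those 3 tumours and 5327 to 7072 on removal of single tumours. With median centring 77.9% were higher. The other pathway genes called numbered 14, and 8 to 16 on removal of single tumours; they split into 9 higher and 6 lower with median centring and 17 and 4 with spike-in centring.

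Several small differences that did not pass changed sign. The dimmer Bcl2l1 probe was at 0.046 with median centring, 0.17 with spike-in centring and 0.040 from Cy3 alone. The dimmer Bad probe was at 0.10 with median centring, 0.23 with spike-in centring, 0.012 with scaling between arrays, 0.011 with array weights, 0.022 with slide as a block and 0.0023 without the 3 tumours, and ranged from -0.10 to 0.0060 on removal of single tumours. The brighter Mcl1 probe was at -0.015 from Cy3 alone, and the mean of both probes at -0.295. Bcl2l11 ranged from -0.018 to 0.12 on removal of single tumours. The causes were not tested. Bid no longer passed under 6 of 27 alternatives, Bmf under 17 of 27 and the dimmer Mcl1 probe under 14 of the 25 that hold it.

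The replicate numbers do not pair the tumours; correlations of deviations were 0.3, -0.0265, -0.0963, -0.0699 and -0.0863, and only number 1 matched its own number best. With the replicate block 5991 probes, 4 of the 10 genes and 13 pathway genes were called, with Bak1 passing (limma adjusted p = 0.0383) and Bmf (limma adjusted p = 0.0924) and the dimmer Mcl1 probe (limma adjusted p = 0.0572) no longer passing.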
